A study of Mus musculus with 2 samples.

Results

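Pax9, Msx1, Msx2, Barx1, Lhx6, Lhx8, Osr2 and Hand2 are transcription factors of the dental mesenchyme, and their signals were compared between the tooth and the skin of newborn mice. They were taken as every non-control probe of the array that carried 1 of these 8 gene names, which gave 11 probes for 8 of the 24323 named genes. The study collected tooth and skin from wild-type mice to set the genes of a tissue that makes enamel beside those of a tissue that makes hair. Total RNA of each tissue was labelled with cyanine 3 from 50 ng of RNA and hybridised to 1 one-colour Agilent whole-genome mouse array per tissue. Both groups were labelled wild-type and P0, whereas the methods of the study name P1, and the labels were followed here. The methods of the study give C57BL/6J as the wild-type strain, and the number of animals that gave RNA to each array is not stated in the sources used here. According to the study, the tooth was the germ of the incisor with its epithelium and mesenchyme together, and the skin held hair follicles. With 1 array per tissue no test was possible, no difference has a replicate check, and every fold below describes these 2 arrays.

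The mesenchyme of the tooth comes from the cranial neural crest and exchanges signals with the overlying epithelium throughout tooth development. Epithelial signals switch on Msx1, Pax9 and other transcription factors in the mesenchyme, and these in turn maintain Bmp4, which acts back on the epithelium. Several members are also used elsewhere, for example Msx2 in the hair matrix and in ameloblasts, so their RNA need not come from mesenchyme alone.

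What the array measured of each member is set by its probes, which were 60 bases long with 1 spot each. The 30 bases at the 3′ end of each probe are shown, 5′ to 3′, because 1 of them differs in kind from the others. Capitals mark a run of alternating C and A. The coordinates are those of the whole probe in mm9, per the file headers, and the exon or UTR under a probe was not analysed here.
Pax9 probe 1 (chr12:57811230-57811289, plus strand): tgaactttcgaaacgtgcaattgttgagat
Pax9 probe 2 (chr12:57812158-57812217, plus strand): tcagaaatacaaatgctatttaatttgtta
Msx1 (chr5:38212305-38212364, minus strand): cttcctcatctgaccccttctgggaagaaa
Msx2 (chr13:53562318-53562377, minus strand): atcccgttgaatgggtatcttgtataattt
Barx1 (chr13:48761442-48761501, plus strand): ttaagggccagacaaggaaggacacaggcc
Lhx6 probe 1 (chr2:35937644-35937703, minus strand): aACACACACACACACACACACACACACACa
Lhx6 probe 2 (chr2:35937470-35937529, minus strand): gagtagaagtgccggcacttaaacccagaa
Lhx6 probe 3 (chr2:35958379-35958438, minus strand): aggagatctactgcaagatggactacttca
Lhx8 (chr3:153969377-153969436, minus strand): gtgttttcgggacaagctgaaggcacgtcc
Osr2 (chr15:35230691-35231706, plus strand): tccaaagaaaagcccttcaaatgtcaggag
Hand2 (chr8:59803220-59803279, plus strand): atttaattaatattgaaggtgtaaacattg
The run of alternating C and A in Lhx6 probe 1 was 28 bases long. None of the other 10 probes held such a run of 20 bases or more. The Osr2 probe spanned 1016 bases of the genome, more than its own length, so its sequence is not contiguous there. Probe 3 of Lhx6 was listed for another transcript of the gene than probes 1 and 2.

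**Figure D1:**
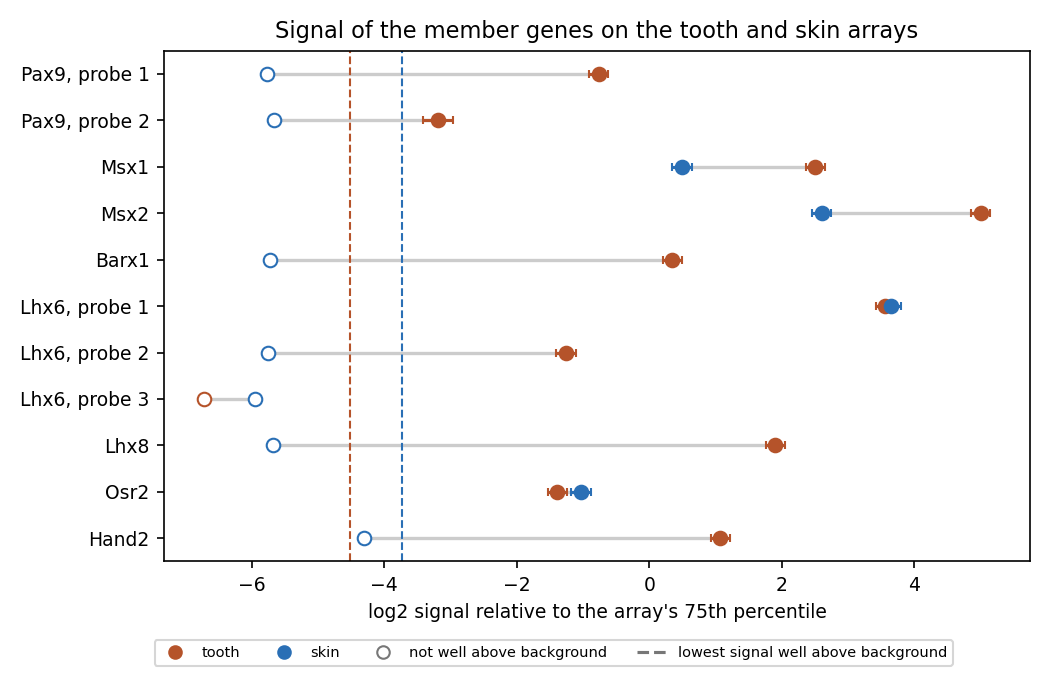
Signal of each probe of the 8 genes, as log2 of the processed signal relative to the 75th percentile of its array (x axis), on the tooth array (brown) and the skin array (blue). Bars are the error the extraction software gave for the spot, open circles are probes not well above background, and dashed lines are the lowest signal well above background on each array. In tooth 10 of 11 probes were filled, and in skin 4 were.

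In tooth all 8 genes were well above background, and Lhx8, Hand2, Barx1 and Pax9 were so in tooth alone. Across all 17409 named genes above background on at least 1 array, 8.03% passed this call in tooth only. At the level of 2-fold, 6 of the 8 genes were higher in tooth (15.5% of the 17409 genes) and 0 were higher in skin (14.2% of the 17409 genes). Lhx6 and Osr2 lay within 2-fold by the probe that stood for each gene, chosen as its brightest over the 2 arrays together. At the level of 16-fold, Lhx8, Barx1, Hand2 and Pax9 were higher in tooth as measured (1.36% of the 17409 genes), and 3 of these 4 still were when the dim skin value was replaced by its bound (158 of the 17409 genes). With normexp background correction, whose values are given with Lhx8, none of the 4 reached 16-fold. The median difference over the 8 genes was 3.70 (log2, tooth minus skin), or 2.69 with dim values at their bound, beside 0.04 over the 17409 genes. In whole tissue, fewer cells of a type and less RNA per cell cannot be told apart, so a difference here may be of either kind.

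The depth of an array lies in its signal over background. The 75th percentile of the processed signal was 428 in tooth and 276 in skin, and 56.7% and 52.5% of 55675 probes were well above background. The defining markers of each tissue were on the side its label gives. Amelx, Ambn, Enam and Dspp, which encode enamel and dentin matrix proteins, passed the background call in tooth alone, whereas Krt1, Krt10, Flg and Lor of the epidermis were over 2-fold higher in skin. Of the 8 spike-in transcripts, whose amounts are set by the kit, the median tooth-to-skin difference before scaling was 0.01. The range was -0.54 to 0.03. Scaling on them in place of the 75th percentile would add 0.62 to every difference (log2), and scaling on the median would add 0.25. Probes differ in how brightly they bind, so a level or a bound of 1 gene gives no order against that of another.

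Pax9, a paired-box factor that the tooth bud needs to progress, gave a processed signal of 252 in tooth and 5.07 in skin at probe 1. On the log2 scale relative to the 75th percentile these levels were -0.76 and -5.77. Probe 2 gave 47.1 and 5.44, or -3.18 and -5.67 on the same scale. Both probes were well above background in tooth and not in skin, so only a bound on the fold can be given. Pax9 was at least 7.83-fold higher in tooth by probe 1 and at least 1.46-fold higher by probe 2. The bound sets the tooth signal against the lowest signal called well above background on the skin array, -3.73, or against the skin signal of the probe itself where that was higher. The bound holds for the processed signal only, and under normexp background correction Pax9 differed by 1.65 (log2). A negative control on the skin array reached -3.35, above -3.73, so the bounds over skin are not strict limits.

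Msx1 and Msx2 are homeobox factors downstream of Bmp signalling. Msx1 is needed in the mesenchyme for the tooth bud to progress, and Msx2 acts later in ameloblasts as well. Msx1 gave a processed signal of 2435 in tooth and 389 in skin. Msx2 gave 13765 and 1681. Both genes were well above background on both arrays, so their folds were measured on both sides. Msx1 differed by 2.01 ± 0.20 (log2, with the error that the extraction software gave), a 4.04-fold higher signal in tooth. Msx2 differed by 2.40 ± 0.20, a 5.28-fold higher signal in tooth. Among the 15271 named genes measured on both arrays, Msx1 ranked 602 and Msx2 ranked 413 from the tooth end. That places them in the top 3.94% and 2.70%. The errors are the software's own figures and not a spread between repeated spots. Spots of multi-spot probes gave an SD of 0.12 for a difference (log2). Neither covers dissection, RNA preparation or variation between animals.

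Barx1 is a homeobox factor of the molar-forming mesenchyme. Its processed signal was 544 in tooth and 5.22 in skin, or 0.35 and -5.72 on the log2 scale relative to the 75th percentile. Barx1 was not well above background in skin, which makes it at least 16.9-fold higher in tooth. Hand2, a basic helix-loop-helix factor of the distal mandibular arch, had a processed signal of 899 in tooth and 14.0 in skin. These are 1.07 and -4.30 on the log2 scale. The skin value of Hand2 passed the more lenient call, significantly above background, but not the stricter one. Hand2 was at least 27.9-fold higher in tooth.

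Lhx8 and Lhx6 are LIM-homeobox factors that are expressed together in the mesenchyme of the oral side of the jaws, and molars need them jointly. Lhx8 gave a processed signal of 1599 in tooth and 5.38 in skin, or 1.90 and -5.68 on the log2 scale. Since its skin signal was not well above background, the fold of Lhx8 was at least 49.6 toward tooth. The folds of the genes that were dim in skin depend on how background is taken off. With normexp correction of the spot and local background intensities in place of the processed signal, the log2 difference was 3.66 for Lhx8, 3.15 for Hand2, 2.50 for Barx1 and 1.65 for Pax9. These values lie under the bounds given above, and all 4 genes were still at least 2-fold higher in tooth.

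The 3 probes of Lhx6 disagreed. Probe 1, which stood for the gene, gave a processed signal of 5059 in tooth and 3476 in skin, or 3.56 and 3.65 relative to the 75th percentile. Its difference was -0.09 ± 0.20 (log2), and it turned positive under scaling on the spike-ins (0.53) or on the median (0.16) and under normexp (0.02). Probe 2 gave 179 in tooth and 5.11 in skin. Only its tooth signal was well above background, at least 5.56-fold over skin. Probe 3 gave 4.03 and 4.46 and was not well above background in either tissue. The direction of Lhx6 therefore depended on the probe that stood for it.

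Probe 1 of Lhx6 is the 1 with the run of alternating C and A shown above, and the other probes of the array with such a run were read beside it. This comparison was chosen after seeing the data. The array held 24 probes with a run of at least 20 bases, that of Lhx6 included. All 24 were well above background on both arrays, against 56.7% and 52.5% of all probes. Their differences ranged from -0.37 to 0.13 with a median of -0.11 (log2). Among the 23 other than that of Lhx6, 21 lay within 0.25 of 0 (91.3%), beside 30.7% of the 27759 probes well above background on both arrays. What these probes bind in either tissue was not tested. Without such probes, probe 2 would stand for Lhx6, 7 of the 8 genes would be at least 2-fold higher in tooth, and the median difference over the 8 genes would be 4.75.

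**Figure D2:**
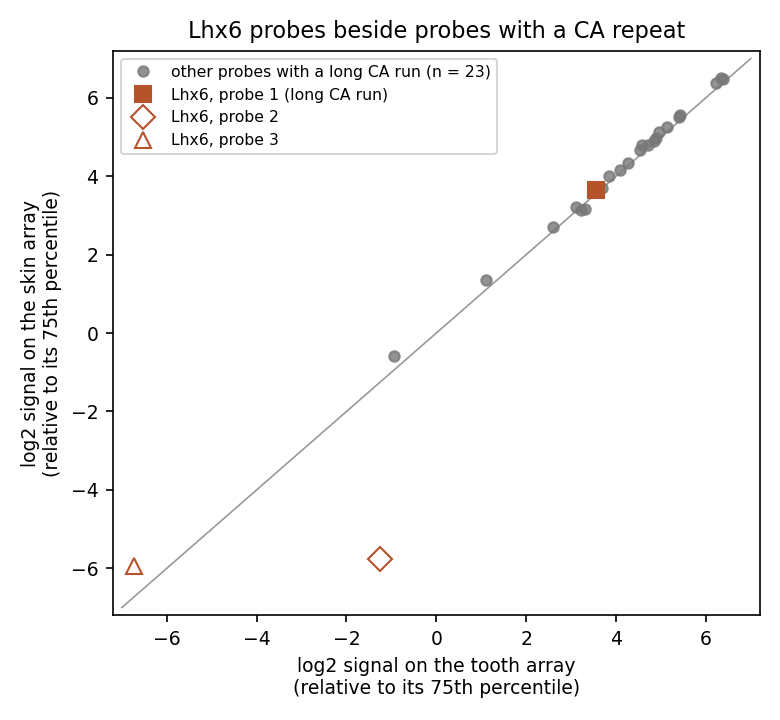
Log2 signal relative to the 75th percentile of its array, on the tooth array (x axis) and the skin array (y axis), for the 3 Lhx6 probes and the 23 other probes with a run of alternating C and A of at least 20 bases; the line marks equal signal, and open symbols are Lhx6 probes not well above background on both arrays. Lhx6 probe 1 lies near the line with the other repeat probes, and probe 2 lies off it at -1.26 in tooth and -5.76 in skin.

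Osr2, a zinc-finger factor that keeps teeth to a single row by holding back the mesenchyme on the lingual side, was the member without a difference of 2-fold by any probe. Its processed signal was 164 in tooth and 135 in skin, or -1.39 and -1.03 relative to the 75th percentile. The difference was -0.35 ± 0.21 (log2), a 1.28-fold higher signal in skin, and it turned to 0.27 in favour of tooth under scaling on the spike-ins. Osr2 was well above background on both arrays. Its direction depends on the scaling.

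**Figure D3:**
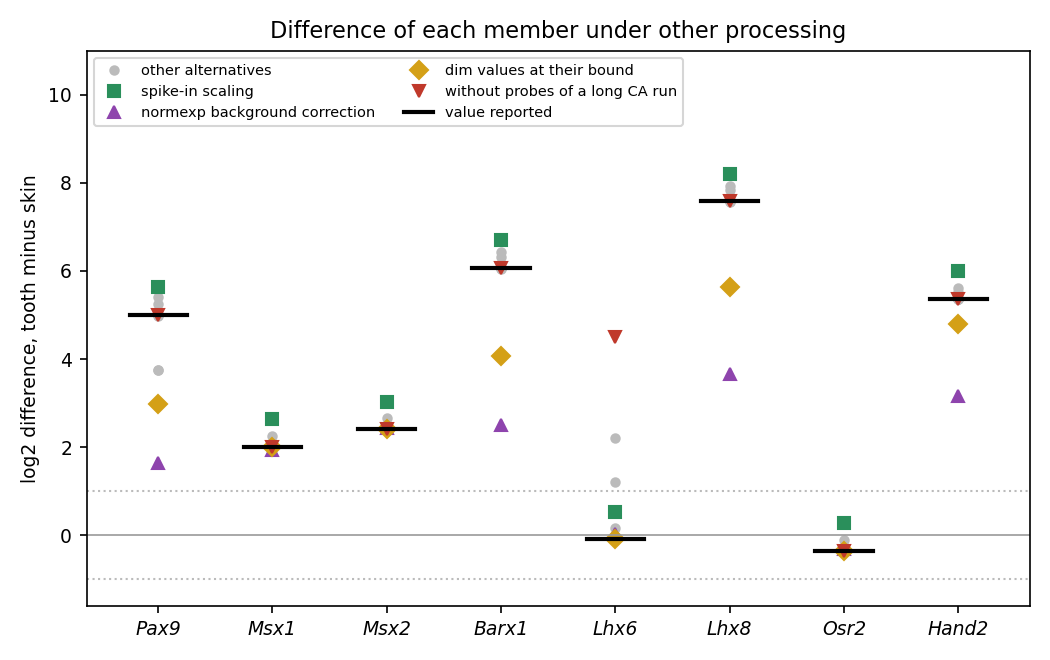
Log2 difference, tooth minus skin (y axis), of each of the 8 genes as reported (black bar) and under each alternative way of processing (symbols); dotted lines mark 2-fold. Pax9, Msx1, Msx2, Barx1, Lhx8 and Hand2 stayed above the upper dotted line under every alternative that gave them a value, Lhx6 ranged from -0.11 to 4.50, and Osr2 ranged from -0.37 to 0.27 and was above 0 only under spike-in scaling.

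Genes of the same families, Pax1, Msx3, Barx2, Lhx2, Lhx9, Lhx1, Lhx5, Osr1 and Hand1, were read beside the 8 genes. Lhx6 and Lhx8 are each other's closest relatives, and the other Lhx genes listed are more distant. Of these 9 paralogs 7 were above background on at least 1 array, 0 were 2-fold or more higher in tooth and 6 in skin. Their median difference was -2.74 (log2), or -1.41 where each dim value stood at its bound. With scaling on the spike-ins, 4 of the 7 were 2-fold or more higher in skin, and under median, quantile or normexp processing 5 were. Lhx2, a LIM-homeobox factor of the hair follicle epithelium, was -3.98 in tooth and 4.43 in skin. That is a 339-fold higher signal in skin, and Lhx2 ranked 25 from the skin end among the 15271 genes measured on both arrays. Its tooth level was near the lowest called well above background there (-4.52), and under normexp the difference was -6.48 (log2).

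Barx2, the relative of Barx1, differed by -1.41 at the probe that stood for it and by -3.49 at its other probe, and under spike-in scaling the former was -0.78. Pax1, the relative of Pax9, had a signal well above background on the skin array alone, at least 5.30-fold over tooth. The same held for Lhx9, at least 2.47-fold over tooth. Under normexp the differences of Pax1 and Lhx9 were smaller than these bounds, at -1.53 and -1.15 (log2). Osr1, the relative of Osr2, differed by -1.04, which fell short of 2-fold under median, quantile, normexp or spike-in processing (-0.41 on the spike-ins). Lhx1 differed by -0.71, and neither Lhx5 nor Hand1 gave a signal well above background. The probes of Msx3 disagreed. The 1 that stood for the gene differed by -2.74, and the other passed the background call in tooth alone, at least 4.19-fold over skin.

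**Figure D4:**
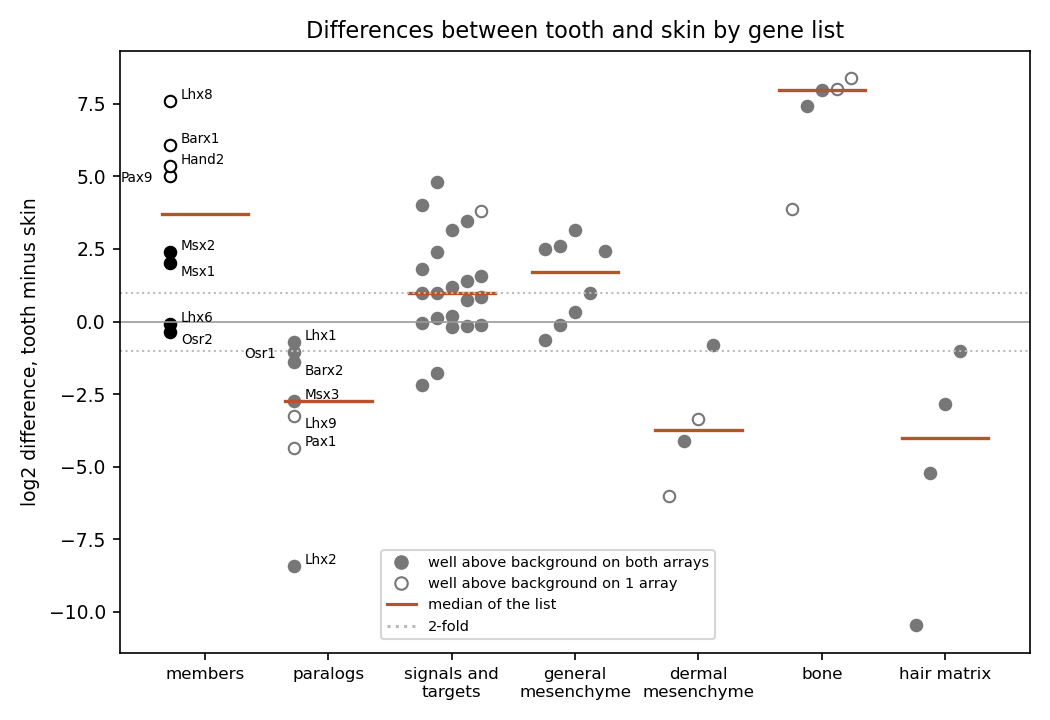
Log2 difference, tooth minus skin (y axis), of each gene above background on at least 1 array, in 7 gene lists (x axis); filled circles were well above background on both arrays, open circles on 1 only, and brown bars are list medians with dim values as measured. The 8 genes lie from -0.35 (Osr2) to 7.58 (Lhx8), and the 7 paralogs from -8.41 (Lhx2) to -0.71 (Lhx1); the signs of Lhx6 and Osr2 turn under spike-in scaling, and that of Lhx6 also under median scaling and normexp.

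The signals and partners of these factors were divided. Of 22 such genes, all above background, 10 were 2-fold or more higher in tooth, 2 in skin, and 10 lay within 2-fold, with a median of 0.98 (log2). The count higher in tooth was 14 under spike-in or median scaling, 12 under quantile normalization and 9 under normexp. The 4 distal-less homeobox genes listed, Dlx1, Dlx2, Dlx5 and Dlx6, pattern the jaws and were higher in tooth, with differences of 4.0 for Dlx2, 3.46 for Dlx1, 3.15 for Dlx5 and 1.81 for Dlx6. Dlx6 fell short of 2-fold under normexp (0.83), where Dlx2 was at 3.92, Dlx5 at 2.64 and Dlx1 at 2.04. Dkk1, a secreted Wnt inhibitor, differed by 4.82 (3.72 under normexp) and ranked 39 from the tooth end. Sfrp2, also a secreted Wnt antagonist, differed by 2.39, and Wnt5a, a non-canonical Wnt ligand, by 1.18.

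Fgf3, a mesenchymal signal of the tooth, passed the background call in tooth alone, at least 3.64-fold over skin, with a difference of 0.86 under normexp. Gli3, a transcription factor of the Hedgehog pathway, differed by 1.57, and Tnc, an extracellular matrix glycoprotein, by 1.39. Bmp4, the signal that Msx1 and Pax9 maintain, had levels of 4.54 on the tooth and 3.68 on the skin array and differed by 0.86 ± 0.20, short of 2-fold, but passed 2-fold under median (1.11) and spike-in scaling (1.48). Fst, which encodes the activin inhibitor follistatin, and Lef1, a nuclear mediator of Wnt signals, were higher in skin, with differences of -2.18 and -1.79. Runx2, a factor of bone and of the tooth mesenchyme, differed by 0.97 at the probe that stood for it. The value of the gene was 1.16 to 1.76 under median, quantile, spike-in and normexp processing. The 1.76 was under normexp, where another probe can be the brightest, so it need not describe the same probe. The 2 other probes of Runx2 passed the background call in tooth alone, at least 9.30-fold and 3.45-fold over skin. They and the 1.76 may therefore not be separate readings.

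Markers of other cell types also differed between the arrays. Of 8 general mesenchyme markers, 4 were at least 2-fold higher in tooth (Col1a1, Pdgfrb, Col1a2 and Pdgfra, by 2.43 to 3.17) and 0 in skin, with a median of 1.71. Under median, quantile, spike-in or normexp processing 5 of the 8 were at least 2-fold higher in tooth. Of 5 dermal mesenchyme markers, 4 were above background, of which 0 were 2-fold or more higher in tooth and 3 in skin, with a median of -3.74. Under normexp 2 of these 4 were so in skin. Tbx15, a T-box factor of the dermis, was among them at -4.13. All 5 genes listed as bone markers (Bglap, Ibsp, Sp7, Dmp1 and Phex) were at least 2-fold higher in tooth, with a median of 7.96. With dim values at their bound the median of these 5 genes was 6.79. Whether their RNA came from bone or from mineralizing cells of the tooth itself was not tested. Of 4 cartilage markers, 2 were at least 2-fold higher in tooth, and all 4 muscle markers and all 4 hair matrix markers were at least 2-fold higher in skin. Krt85 of the hair matrix passed only narrowly, at -1.01, and would fall short under median or spike-in scaling. Its other probes differed by -3.46 and -9.22. The part of any of these cell types in the differences of the 8 genes was not tested.

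Promoters of 7 of the 8 genes were listed by RefSeq (GRCm38.p6), 9 in all, as 300 bases around each start. The motifs TAATTA and TAATTG, which homeodomain proteins can bind, and CATCTG, an E-box that basic helix-loop-helix proteins can bind, were searched on both strands. TAATTA and TAATTG share most letters and can overlap, though no matches shown do. Among all 32851 promoters of this length, TAATTA was present in 5.29%, TAATTG in 8.0% and CATCTG in 17.2%. TAATTA was present in those of Hand2 and Msx2, TAATTG in those of Hand2 and 1 of the 3 of Lhx6, and CATCTG in that of Hand2 alone among the 7 genes. The 250 bases before the start are shown for both genes that held TAATTA, with motif letters in capitals; CAATTA is TAATTG on the other strand.
Hand2 (chr8:57320733-57320982, plus strand): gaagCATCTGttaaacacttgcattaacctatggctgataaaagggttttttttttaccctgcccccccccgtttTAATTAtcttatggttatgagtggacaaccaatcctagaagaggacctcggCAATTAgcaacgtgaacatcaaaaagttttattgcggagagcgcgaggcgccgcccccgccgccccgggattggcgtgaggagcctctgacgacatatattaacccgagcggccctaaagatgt
Msx2 (chr13:53472781-53473030, minus strand): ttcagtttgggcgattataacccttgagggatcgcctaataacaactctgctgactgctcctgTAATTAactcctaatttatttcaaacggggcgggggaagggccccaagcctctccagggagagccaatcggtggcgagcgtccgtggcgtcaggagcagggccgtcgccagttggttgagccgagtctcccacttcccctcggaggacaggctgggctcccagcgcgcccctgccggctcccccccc
The Barx1 promoter held none of these motifs and had a GC content of 84.7%, against a median of 52.7% over all promoters. The matches are descriptions of sequence, and no binding was measured.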

How the data were processed

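Tooth and skin RNA were measured on 1 Agilent array each. The deposited spot intensities were linear and came out of Agilent Feature Extraction 10.7.3.1, which per the file headers had subtracted background and removed spatial trends, with surrogates for very dim spots (25.0% in tooth, 27.7% in skin) and calls for signal above background. The authors also deposited 1 ratio per spot, the processed intensity over a single factor per array. The methods of the study name GeneSpring, a filter on very low signals and a percentile shift.

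From the log2 processed signal, with spots of a probe averaged, the 75th percentile over non-control probes was subtracted per array. A probe counted where over 50% of its spots were well above background. No spot was saturated. Multi-spot probes had a median SD of 0.08 and 0.09 (log2) on the tooth and skin arrays, and the number of arrays limits the precision. Gene names came through RefSeq accessions for 82.1% of 33182 named probes, and otherwise from the array. All members with every probe were named, as were paralogs and signals at least 2-fold apart or compared with a member. The members, lists and rule were chosen with earlier results of these data known. Another scaling (median, quantile, spike-ins), normexp with an offset of 50, the deposited ratios, probe averaging, dim-probe filters and values at their bound were tried. Python 3.11.15, pandas 2.3.3, R 4.3.3 and limma 3.58.1 were used. The probe and gene steps were tested on simulated data in which only bright genes were changed, so the bounds for dim values were not tested. Markers of the dental epithelium are not reported here.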

Additional observations from a re-analysis of the deposited data

Results flagged for a closer look

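Within 100 kb of the members' probes (mm9) the array carried 24 probes of other genes, and 5 of these (20.8%) were well above background in tooth only, beside 6.87% of all probes. They were looked for after the data were seen and belong to no comparison above. They were taken up because they passed the background call in tooth only, so that call lends them no further support. Of the negative controls, 0 of 308 were well above background in tooth, with a highest value of -4.59. In skin 1 of 308 (0.325%) passed the call, and the highest value was -3.35, above the value of -3.73 that the folds over skin are set against. Neighbouring probes are not independent of each other, and no explanation was tested. Beside Lhx8, AI606473, on the opposite strand at 28.2 kb, had a tooth signal of 1.50 (log2 relative to the 75th percentile), at least 37.6-fold over skin. Also near Lhx8, Slc44a5 had a tooth signal of -1.94 at 1 probe, at least 3.46-fold higher, while its other probe was not above background in either tissue. Beside Hand2, AV026068, on the opposite strand at 17.3 kb, had a tooth signal of 0.49, at least 18.7-fold higher. TC1727594, 10.8 kb from Hand2, had a tooth signal of -2.02, at least 3.28-fold higher. Beside Lhx6, Morn5, 2.31 kb away on the opposite strand, had a tooth signal of -1.82, at least 3.76-fold higher.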

How the results depend on the processing

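Over 11 alternatives and 1 chosen after seeing the data (no probes with a run of alternating C and A of at least 20 bases), 0 of the 8 genes were at least 2-fold higher in skin. The count at least 2-fold higher in tooth stayed at 6, except for 7 under both ways of averaging probes and without the repeat probes, and 2 of the 4 genes left when both arrays had to be well above background. The median difference over the 8 genes, 3.70 as reported, was 3.95 under median scaling, 3.92 under quantile normalization, 4.33 under spike-in scaling, 2.18 under normexp, 3.07 under both ways of averaging probes, 0.96 with both arrays required above background, 2.69 with dim values at their bound and 4.75 without the repeat probes. Of all named genes, 32.4% were at least 2-fold higher in tooth under spike-in scaling and 9.60% under normexp, and 9.03% were higher in skin under spike-in scaling. Values near background limit what can be said of Pax9, Barx1, Lhx8 and Hand2 in skin. Only bounds on the processed signal are known there, and normexp gave differences smaller than these bounds. No paired analysis was possible because each tissue had 1 array, and for the same reason no array could be left out.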
